A study of Mus musculus with 6 samples.

Results

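Axon guidance genes encode the ligands and receptors that steer growing axons, migrating neural crest cells and vessels: semaphorins with their plexin and neuropilin receptors, slits with robos, netrins with Unc5 receptors, and ephrins with Eph receptors. Their expression was described in cultured cells of embryonic mouse gut, together with secreted factors that act on enteric neural crest or its axons. The members were set by a rule on gene symbols, chosen with earlier results of these data known. They come from the 9 families just named (semaphorins of classes 3 to 7, plexins, neuropilins, slits, robos, netrins, Unc5 receptors, Eph receptors and ephrins), plus the single genes Gdnf, Edn3, Ptn and Nrg1. Of 72 genes that the rule names in the RefSeq table, 59 were measured, among 12393 genes in all, and the other 13, Nrg1 among them, are not analysed here.

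The study set 3 groups of 2 arrays side by side, each array hybridised with RNA from C57BL/6 tissue taken at embryonic day 13.5, dissociated with proteases and cultured for 3 days. In the first group, called Barx1 intestine here, embryos with the genotype Rosa26+/Barx1;Bapx1+/Cre expressed the transcription factor BARX1 in the intestine. The stomach group and the intestine group came from embryos with Rosa26+/Barx1 or Bapx1+/Cre alone, which the labels also call wildtype, and which allele each sample carried is not stated. Because Cre is expressed from the Bapx1 (Nkx3-2) locus, recombination is limited to cells of that lineage, while the arrays measured all cultured cells together, so fewer cells of a type and less RNA per cell cannot be told apart.

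Expression is given as log2 values on the scale that the authors deposited, on which 1 unit is a doubling. Array medians lay between 6.93 and 6.98 and lower quartiles between 4.72 and 4.76, and whether a level under the quartile of its own array exceeds background is not known. Of the 59 genes, 45 were above it on all 6 arrays and 9 under it on all 6. A difference is the mean of the first named group minus that of the other group, with the SE of the fit in limma, and the threshold is an adjusted p under 0.05, taken over all 12393 genes. Barx1 read 8.66 and 8.79 in Barx1 intestine, 9.82 and 9.79 in stomach, and 5.13 and 4.93 in intestine, so the arrays followed their labels. Acta2, Tagln and the other 16 of 18 markers of mesenchyme and smooth muscle were above the quartile on at least 1 array. Markers of other cells were present too. The mean of 18 macrophage and leukocyte genes was 6.94 and 7.78 in Barx1 intestine, 8.28 and 8.0 in stomach, and 8.68 and 9.64 in intestine. That of 25 endoderm epithelium genes was 7.02 and 6.56 in Barx1 intestine, 6.24 and 6.65 in stomach, and 7.77 and 7.14 in intestine. Of 20 endothelial genes 6 were under the quartile on all 6 arrays.

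In the gut wall, GDNF from the mesenchyme draws RET-expressing neural crest cells along the bowel, and endothelin 3, the product of Edn3, acts on the same cells through EDNRB. Class 3 semaphorins are secreted and mostly repel, binding neuropilins that signal through plexins; slits repel through robos; and ephrins are anchored to the membrane, so that they and Eph receptors signal in both directions at contacts between cells. Many of these molecules also act on mesenchyme, vessels and epithelium.

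Sequences before the start are shown for 4 genes. Sema3a and Ptn passed in Barx1 intestine against both other groups, and Slit2 and Epha3 had the largest excess in stomach over intestine. Each run is the 250 bases before the start in RefSeq (build GRCm38.p6), read 5′ to 3′ along the gene's strand. Capitals mark the core motif that many homeodomain proteins bind, TAAT on either strand, and the TATA box, TATAAA on either strand. The windows are chr5:13396534-13396783 (plus strand) for Sema3a, chr6:36810180-36810429 (minus strand) for Ptn, chr5:47982905-47983154 (plus strand) for Slit2 and chr16:63864176-63864425 (minus strand) for Epha3. The RefSeq span of Sema3a also begins farther upstream than the start shown.
Sema3a: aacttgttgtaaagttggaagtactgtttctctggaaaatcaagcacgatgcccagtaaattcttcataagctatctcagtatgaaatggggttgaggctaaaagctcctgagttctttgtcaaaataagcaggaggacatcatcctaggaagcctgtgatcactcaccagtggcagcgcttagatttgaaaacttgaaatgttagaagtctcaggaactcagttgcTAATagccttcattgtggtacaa
Ptn: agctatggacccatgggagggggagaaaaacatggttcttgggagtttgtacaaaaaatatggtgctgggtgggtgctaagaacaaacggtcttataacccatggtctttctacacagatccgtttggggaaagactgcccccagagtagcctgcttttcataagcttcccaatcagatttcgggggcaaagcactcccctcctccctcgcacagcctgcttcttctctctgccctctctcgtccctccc
Slit2: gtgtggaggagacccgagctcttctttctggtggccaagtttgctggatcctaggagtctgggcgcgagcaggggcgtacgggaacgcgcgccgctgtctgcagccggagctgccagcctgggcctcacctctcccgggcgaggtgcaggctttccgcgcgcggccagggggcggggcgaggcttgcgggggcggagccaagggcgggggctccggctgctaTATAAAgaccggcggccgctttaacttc
Epha3: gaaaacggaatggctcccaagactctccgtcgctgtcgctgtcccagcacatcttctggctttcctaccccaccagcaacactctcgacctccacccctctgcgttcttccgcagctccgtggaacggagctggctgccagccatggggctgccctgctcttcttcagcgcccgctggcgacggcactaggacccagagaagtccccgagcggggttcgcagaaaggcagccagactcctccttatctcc
The Sema3a window, at 40.8% G and C, held 1 TAAT core, 23 bases before the start. Slit2 had a G and C content of 69.6% and a TATA box 28 bases before the start. Neither set of letters occurred in the windows of Ptn (52.0% G and C) and Epha3 (62.8%). These matches describe sequence only. Each share counts windows with at least 1 match. The TAAT core stood in 26 of 66 windows of the 52 measured members with a window in RefSeq (39.4%), against 54.9% of all 32851 windows, and the TATA box in 4.55% against 12.4%. The members' windows were also richer in G and C (median 64.2% against 52.4%), and the TAAT core consists of A and T alone.

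Of the 59 genes, more passed between the control organs than between Barx1 intestine and either of them. In Barx1 intestine against intestine, Sema3a, Epha1 and Robo4 were higher and Ptn, Sema3b and Nrp2 lower, 6 of 59 genes (10.2%, against 3.98% of all genes, 1.86% higher and 2.12% lower). In stomach against intestine 15 passed, 8 higher and 7 lower (25.4%, against 16.9% of all genes, 8.86% higher and 8.09% lower). In Barx1 intestine against stomach 9 passed, 4 higher and 5 lower (15.3%, against 5.2% of all genes, 2.56% higher and 2.64% lower). In all, 19 genes passed at least 1 comparison, 11 of them in 2 comparisons and none in all 3, and 40 passed none. The median absolute difference of the 59 genes was 0.164, 0.219 and 0.152 in these 3 comparisons, against 0.108, 0.139 and 0.113 over all genes. The comparisons share arrays, so their counts are not independent of each other.

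Few of these calls held without every array. A fit without 1 array of the group not compared equals the fit of the 2 compared groups alone, whichever array is left out. A call lost there keeps its difference and loses only part of the estimate of the spread. Sema3a in Barx1 intestine against intestine, and Epha3 and Slit2 in stomach against intestine, passed whichever of the 6 arrays was left out. Of the 6 calls against intestine, 5 held without intestine replicate 1, 3 without intestine replicate 2, 2 without either stomach array, and 1, Sema3a, without either Barx1 intestine array. Of the 15 calls between stomach and intestine, 5 held without stomach replicate 1, 2 without stomach replicate 2, 8 without intestine replicate 1, 9 without intestine replicate 2 and 13 without either Barx1 intestine array. Of the 9 calls between Barx1 intestine and stomach, 0 held without Barx1 intestine replicate 1 or without stomach replicate 2, 1 held without stomach replicate 1, 3 without Barx1 intestine replicate 2 and 8 without either intestine array. No difference turned its sign in any of these fits, and the highest adjusted p was 0.163, 0.196 and 0.218 in the 3 comparisons.

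**Figure D1:**
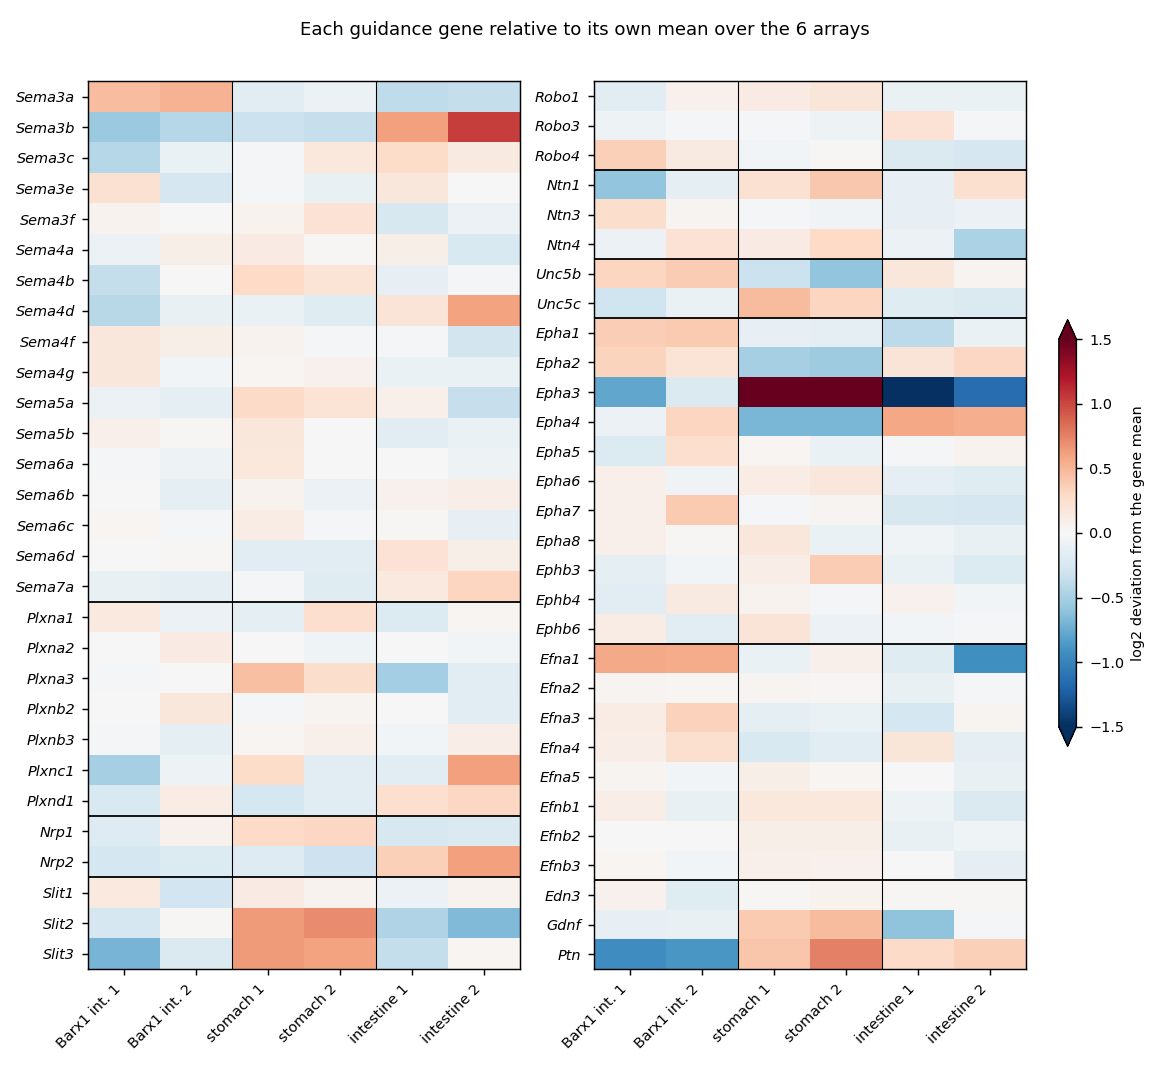
Log2 deviation of each of the 59 genes (rows, families divided by black lines) from its own mean over the 6 arrays (columns, by group), with colours cut at 1.5 in either direction. Epha3 stands out with high stomach arrays and low intestine arrays, Sema3a and Ptn separate the Barx1 intestine arrays from all others, and most ephrin rows are nearly flat.

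**Figure D2:**
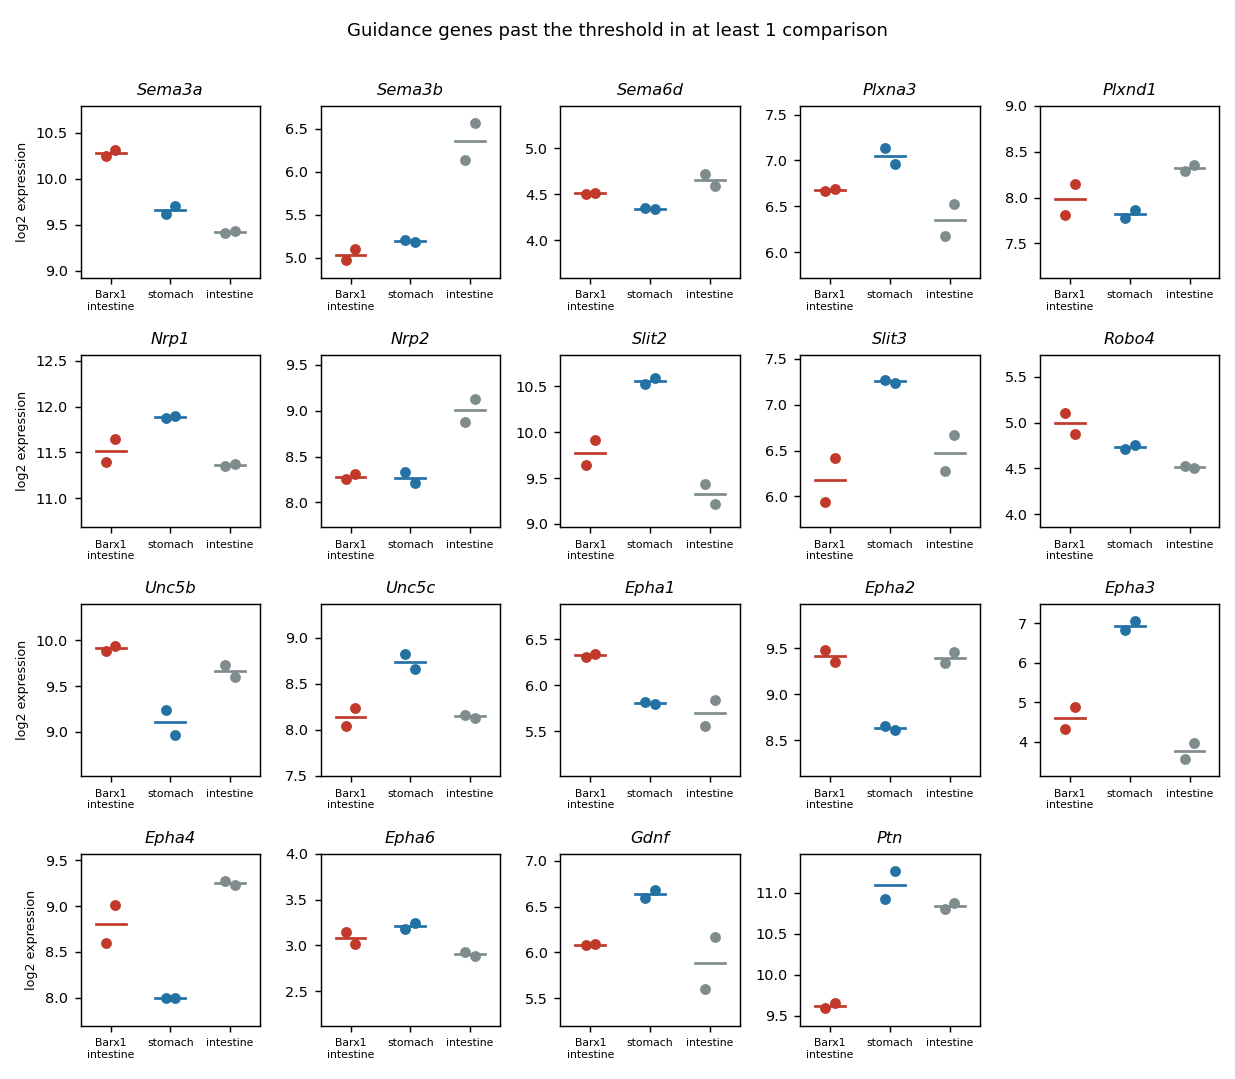
Log2 expression (vertical axis, own range for each gene) on each of the 6 arrays for the 19 genes past the threshold in at least 1 comparison; points are arrays and bars are group means. Sema3a is highest and Ptn lowest in Barx1 intestine, while Sema3b and Nrp2 are near the stomach level there and higher in intestine.

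Among the semaphorins, the class 3 ligands Sema3a and Sema3b moved in opposite directions in Barx1 intestine. Sema3a (NCBI gene 20346), which encodes a secreted repellent that signals through neuropilin 1 and class A plexins, read 10.25 and 10.31 in Barx1 intestine, 9.62 and 9.70 in stomach, and 9.41 and 9.43 in intestine. The Barx1 intestine arrays were thus above those of both control organs, without overlap. The difference was 0.86 (SE 0.06, adjusted p = 0.0061) from intestine, 1.82-fold, and 0.62 (SE 0.06, adjusted p = 0.0141) from stomach, while stomach exceeded intestine by 0.24 without passing (adjusted p = 0.0517). Its other 2 probe sets rose as well, by 0.58 and 0.77 against intestine and by 0.70 and 0.95 against stomach. The excess over intestine ranged from 0.83 to 0.89 in the fits without 1 array (adjusted p up to 0.0431), and that over stomach was lost without either stomach or either Barx1 intestine array (adjusted p up to 0.109).

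Sema3b, another secreted class 3 ligand, read 4.97 and 5.10 in Barx1 intestine, 5.21 and 5.18 in stomach, and 6.14 and 6.57 in intestine. The intestine arrays stood above all 4 others. It fell in Barx1 intestine (difference -1.32, SE 0.14, adjusted p = 0.0188) and in stomach (difference -1.16, SE 0.14, adjusted p = 0.00856), both against intestine, and Barx1 intestine and stomach differed by -0.16 (SE 0.14, adjusted p = 0.545). The size rests on 1 probe set: the other 2 gave -0.12 and 0.04 for Barx1 intestine against intestine, and -0.26 and -0.10 for stomach against intestine, none of them past the threshold. With all probe sets averaged, the difference of Barx1 intestine from intestine was -0.47 and no longer passed (adjusted p = 0.0771), and that of stomach was -0.50 (adjusted p = 0.0334). The call for Barx1 intestine was lost without either stomach array (adjusted p = 0.0637) or either Barx1 intestine array (adjusted p up to 0.116), and the call for stomach without either stomach array (adjusted p up to 0.0685).

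Of the other 15 semaphorins, 1 passed a test, between stomach and intestine, where 16.9% of all genes passed. Sema6d, a transmembrane semaphorin, read 4.50 and 4.52 in Barx1 intestine, 4.35 and 4.34 in stomach, and 4.72 and 4.59 in intestine, with a difference of -0.31 between stomach and intestine (SE 0.07, adjusted p = 0.034). All 6 arrays lay under their lower quartiles, so this level may be background. In fits without 1 array the difference ranged from -0.38 to -0.24, and 5 of 6 lost the call. Among these are the fits without either Barx1 intestine array, which are the same fit of stomach and intestine alone. The remaining 14 (Sema3c, Sema3e, Sema3f, Sema4a, Sema4b, Sema4d, Sema4f, Sema4g, Sema5a, Sema5b, Sema6a, Sema6b, Sema6c and Sema7a) had differences of -0.66 to 0.38 over the 3 comparisons and no call (lowest adjusted p = 0.0581). The lowest value belonged to Sema4d, a membrane ligand of plexin B1 that lymphocytes also carry, at 6.42 and 6.73 in Barx1 intestine, 6.74 and 6.66 in stomach, and 7.03 and 7.44 in intestine (difference from intestine -0.66 for Barx1 intestine, adjusted p = 0.0873). This size rests on 1 probe set, since its other probe sets gave 0.10 and 0.03 in that comparison. The intestine array with the higher Sema4d, replicate 2, was also the higher of the pair in Sema3b and in the leukocyte marker mean given above. Nrp2, Slit3, Gdnf and Ntn1 had the same order, so it cannot tell cell types apart. Of the 18 leukocyte markers, 7 were lower in Barx1 intestine than in intestine and 0 higher, with a median of -1.83, where 3.98% of all genes passed. In stomach against intestine 0 of the 18 passed, with a median of -1.0, where 16.9% of all genes passed. The part of these cells in either gene was not tested.

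The neuropilins are co-receptors of class 3 semaphorins and of VEGF. Nrp2 read 8.25 and 8.31 in Barx1 intestine, 8.33 and 8.21 in stomach, and 8.88 and 9.13 in intestine. Barx1 intestine and stomach overlapped, and both lay below intestine. Against intestine, Nrp2 fell in Barx1 intestine (difference -0.72, SE 0.10, adjusted p = 0.0274) and in stomach (difference -0.74, SE 0.10, adjusted p = 0.00989), and the direct difference of Barx1 intestine from stomach was 0.02 (SE 0.10, adjusted p = 0.94). Nrp1 read 11.39 and 11.65 in Barx1 intestine, 11.87 and 11.90 in stomach, and 11.35 and 11.37 in intestine. It was higher in stomach than in intestine by 0.53 (SE 0.09, adjusted p = 0.0201), with 0.50 and 0.53 on its other 2 probe sets, and Barx1 intestine differed from intestine by 0.16 (adjusted p = 0.357) and from stomach by -0.37 (adjusted p = 0.0885). Leaving out 1 array ended the Nrp2 call for Barx1 intestine unless that array was intestine replicate 1 (adjusted p up to 0.142), that for stomach was lost without either stomach array (adjusted p up to 0.0799), and the Nrp1 call was lost without any 1 of the stomach or intestine arrays (adjusted p up to 0.119).

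Plexins, the signalling receptors of semaphorins, gave 2 calls in 7 genes, both between stomach and intestine, where 16.9% of all genes passed. In Barx1 intestine against intestine and against stomach, 3.98% and 5.2% of all genes passed. Plxna3, a class A plexin that works with neuropilins, read 6.67 and 6.69 in Barx1 intestine, 7.14 and 6.96 in stomach, and 6.18 and 6.52 in intestine. Stomach exceeded intestine by 0.70 (SE 0.13, adjusted p = 0.0214), while the arrays of Barx1 intestine lay between, 0.33 above intestine (adjusted p = 0.199). Its other probe set gave 0.05 for stomach against intestine, and the average of both gave 0.38 (adjusted p = 0.0465). Plxnd1, a receptor of semaphorin 3E known from vessels, read 7.81 and 8.15 in Barx1 intestine, 7.78 and 7.87 in stomach, and 8.29 and 8.35 in intestine. It was lower in stomach than in intestine (difference -0.50, SE 0.12, adjusted p = 0.043), and that call was lost without any 1 of the stomach or intestine arrays (adjusted p up to 0.194). That of Plxna3 was lost without either stomach array (adjusted p up to 0.123). Plxna1, Plxna2, Plxnb2, Plxnb3 and Plxnc1 had differences of -0.52 to 0.16 without a call. Among them Plxnb2 stayed between 9.87 and 10.20 on all 6 arrays, and Plxnc1, which leukocytes express, spread from 4.65 to 5.42 between the intestine replicates.

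Of the 3 slits, Slit2 and Slit3 were higher in stomach than in either intestine group. Slit2, a secreted repellent for robo-bearing axons, read 9.64 and 9.91 in Barx1 intestine, 10.53 and 10.59 in stomach, and 9.43 and 9.22 in intestine. The 3 groups did not overlap, with stomach highest and Barx1 intestine between. Stomach exceeded intestine by 1.24 (SE 0.11, adjusted p = 0.0044), 2.35-fold; Barx1 intestine was 0.45 above intestine without passing (SE 0.11, adjusted p = 0.0927) and lower than stomach (difference -0.79, SE 0.11, adjusted p = 0.0278). The other Slit2 probe set gave 0.96 for stomach against intestine, also past the threshold, and -0.33 for Barx1 intestine against stomach, where the average of both probe sets no longer passed (-0.56, adjusted p = 0.0685). The stomach excess ranged from 1.13 to 1.34 in the fits without 1 array (adjusted p up to 0.046).

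Slit3 read 5.94 and 6.42 in Barx1 intestine, 7.27 and 7.24 in stomach, and 6.28 and 6.67 in intestine. Stomach was above both intestine groups, which overlapped. The difference was 0.78 between stomach and intestine (SE 0.19, adjusted p = 0.0463) and -1.08 between Barx1 intestine and stomach (SE 0.19, adjusted p = 0.0417), while Barx1 intestine differed from intestine by -0.30 (SE 0.19, adjusted p = 0.415). Without 1 array of either group compared both Slit3 calls were lost (adjusted p up to 0.181 and 0.218), as was the Slit2 call between Barx1 intestine and stomach (adjusted p up to 0.186). Of the 18 mesenchyme and smooth muscle markers, 7 were also higher and 2 lower in stomach than in intestine (median 0.21), where 16.9% of all genes passed. In Barx1 intestine against stomach, where 5.2% of all genes passed, 1 was higher, Foxf2 (0.71), and 7 lower (median -0.33). Among the lower were the smooth muscle genes Des (-1.16) and Myocd (-0.89). The fibroblast genes Col1a1 (-1.01), Col1a2 (-2.46), Col3a1 (-1.06) and Pdgfra (-1.07) were lower too. Both sets of 7 include Barx1, the gene that defines the groups. Acta2 (-0.05), Tagln (0.05) and Vim (-0.10) gave no call between Barx1 intestine and stomach. The part of these cells in the slit differences was not tested. Slit1 stayed between 5.92 and 6.35 on all arrays with no call.

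Of their receptors, Robo1, the main slit receptor of axons among those measured, read 8.15 and 8.39 in Barx1 intestine, 8.45 and 8.50 in stomach, and 8.22 and 8.22 in intestine, with no call (lowest adjusted p = 0.111). Robo4, a receptor of endothelial cells, read 5.10 and 4.88 in Barx1 intestine, 4.71 and 4.76 in stomach, and 4.53 and 4.50 in intestine. Both intestine arrays and stomach replicate 1 lay under their quartiles. It was higher in Barx1 intestine than in intestine by 0.47 (SE 0.09, adjusted p = 0.0484), a call that none of the 6 fits without 1 array kept (adjusted p up to 0.153). Of the other 19 endothelial markers 0 were higher and 2 lower in the same comparison, namely the junction genes Esam (-0.92, adjusted p = 0.00905) and Pecam1 (-0.61, adjusted p = 0.0239), and Pecam1 was under the quartile on all 6 arrays. Over all genes 3.98% passed in that comparison. The part of endothelial cells in the Robo4 difference was not tested. Robo3 read 4.47 to 4.76 without a call.

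Netrins and their Unc5 receptors differed in what they showed. Ntn1, Ntn3 and Ntn4 gave no call by limma, with 1 of the 3 at an unadjusted p under 0.05 in each comparison (differences of -0.68 to 0.49, lowest adjusted p = 0.102). Of all 12393 genes, 2924 had such a p in Barx1 intestine against intestine. The numbers were 4176 in stomach against intestine and 3000 in Barx1 intestine against stomach. Ntn1, the axon attractant and repellent netrin 1, read 6.10 and 6.55 in Barx1 intestine, 6.92 and 7.10 in stomach, and 6.57 and 6.94 in intestine. Its stomach and intestine arrays overlapped. Unc5b, a repulsive netrin receptor also known from vessels, read 9.88 and 9.94 in Barx1 intestine, 9.24 and 8.97 in stomach, and 9.73 and 9.60 in intestine. It was lower in stomach than in intestine (difference -0.56, SE 0.11, adjusted p = 0.0236) and higher in Barx1 intestine than in stomach (0.81, SE 0.11, adjusted p = 0.0227), with 0.25 between Barx1 intestine and intestine (adjusted p = 0.228).

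Unc5c, a repulsive receptor of the same family, ran the other way. It read 8.04 and 8.24 in Barx1 intestine, 8.82 and 8.66 in stomach, and 8.16 and 8.13 in intestine. Both intestine groups overlapped below stomach. The difference was 0.59 between stomach and intestine (SE 0.10, adjusted p = 0.0154), -0.60 between Barx1 intestine and stomach (SE 0.10, adjusted p = 0.0338) and -0.01 between Barx1 intestine and intestine (SE 0.10, adjusted p = 0.971). The calls of Unc5b and Unc5c between Barx1 intestine and stomach were lost without any 1 array of these groups (adjusted p up to 0.121 and 0.178). Between stomach and intestine, that of Unc5c was lost without any 1 stomach or intestine array (adjusted p up to 0.0949) and that of Unc5b without stomach replicate 2 or either intestine array (adjusted p up to 0.105).

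Eph receptors, the largest family of receptor tyrosine kinases, held the largest difference among the 59 genes. Epha3 (NCBI gene 13837), a receptor that binds ephrin-A5, read 4.33 and 4.89 in Barx1 intestine, 6.84 and 7.05 in stomach, and 3.56 and 3.96 in intestine. The groups did not overlap, and stomach was far above the others. Both intestine arrays and Barx1 intestine replicate 1 lay under their quartiles, so the size of the difference from intestine is uncertain. Stomach exceeded intestine by 3.19 (SE 0.22, adjusted p = 0.00261), and Barx1 intestine was below stomach (difference -2.34, SE 0.22, adjusted p = 0.0136) and 0.85 above intestine without passing (SE 0.22, adjusted p = 0.0972). The size depended on the probe set, since the other 2 gave 0.89 and 0.49 for stomach against intestine, of which 0.49 passed (adjusted p = 0.021), and the average of all 3 gave 1.52 (adjusted p = 0.00754), with -1.17 for Barx1 intestine against stomach (adjusted p = 0.0316). The stomach excess held in all fits without 1 array, at 2.99 to 3.39, and the deficit of Barx1 intestine against stomach was lost without either stomach array or Barx1 intestine replicate 1 (adjusted p up to 0.116).

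Epha4 and Epha2 were lowest in stomach. Epha4, which binds ephrins of both classes, read 8.60 and 9.01 in Barx1 intestine, 8.0 and 8.0 in stomach, and 9.27 and 9.23 in intestine. Stomach was lowest, and the Barx1 intestine arrays lay between. The difference was -1.25 between stomach and intestine (SE 0.14, adjusted p = 0.00584), 0.81 between Barx1 intestine and stomach (SE 0.14, adjusted p = 0.0373) and -0.44 between Barx1 intestine and intestine (SE 0.14, adjusted p = 0.13). Its other probe set gave -1.13 and 0.78 for the first 2 of these, both past the threshold. Epha2, a receptor of epithelial and other cells, read 9.48 and 9.35 in Barx1 intestine, 8.65 and 8.61 in stomach, and 9.34 and 9.46 in intestine. It was lower in stomach than in intestine (difference -0.77, SE 0.08, adjusted p = 0.00464), and Barx1 intestine, which overlapped intestine, exceeded stomach by 0.78 (SE 0.08, adjusted p = 0.0138). The calls between stomach and intestine were lost without stomach replicate 2 alone (adjusted p = 0.0553 for Epha4 and 0.0508 for Epha2). Between Barx1 intestine and stomach, that of Epha4 was lost in all 6 fits without 1 array (adjusted p up to 0.211) and that of Epha2 without either stomach array or Barx1 intestine replicate 1 (adjusted p up to 0.117).

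Epha1, an epithelial Eph receptor, was the 1 Eph gene called between Barx1 intestine and intestine, where 3.98% of all genes passed. An unadjusted p under 0.05 by limma was reached there by 5 of 11 Eph genes, and by 2924 of all 12393 genes. Epha1 read 6.31 and 6.34 in Barx1 intestine, 5.82 and 5.80 in stomach, and 5.55 and 5.84 in intestine. The Barx1 intestine arrays were above all others, by 0.63 against intestine (SE 0.10, adjusted p = 0.0406) and by 0.51 against stomach (SE 0.10, adjusted p = 0.0515). The other probe sets gave 0.14 and 0.50 against intestine without passing, and the call was lost without either stomach or either Barx1 intestine array (adjusted p up to 0.163). The endoderm epithelium marker mean, given above, was higher on both intestine arrays than on either Barx1 intestine array, and the part of epithelium in the Epha1 difference was not tested. Epha6 rose by 0.30 in stomach against intestine (SE 0.07, adjusted p = 0.0392), but its levels of 2.89 to 3.24 lay under the quartile on all 6 arrays, and the call was lost without any 1 stomach or intestine array (adjusted p up to 0.196). Epha5, Epha7, Epha8, Ephb3, Ephb4 and Ephb6 gave no call, with differences of -0.34 to 0.48. The highest of these was Epha7, at 7.07 and 7.39 in Barx1 intestine, 6.98 and 7.03 in stomach, and 6.75 and 6.74 in intestine (difference from intestine 0.48 for Barx1 intestine, adjusted p = 0.0733).

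None of the 8 ephrins, the ligands of these receptors, passed in any comparison by limma, with 2 at an unadjusted p under 0.05 in each. Of all 12393 genes, 3.98% passed in Barx1 intestine against intestine, 16.9% in stomach against intestine and 5.2% in Barx1 intestine against stomach. An unadjusted p under 0.05 was reached by 2924, 4176 and 3000 genes in these comparisons. The ephrin differences ranged from -0.22 to 1.11, and the lowest adjusted p was 0.0637. The highest value belonged to Efna1, a membrane-anchored ligand of EphA receptors such as EPHA2, which read 7.06 and 7.04 in Barx1 intestine, 6.39 and 6.56 in stomach, and 6.31 and 5.57 in intestine. The Barx1 intestine arrays were above all others, and the difference of 1.11 from intestine had an SE of 0.23 (adjusted p = 0.0637). Efnb2, a transmembrane ligand of EphB receptors and EPHA4 that marks arteries, read 11.11 and 11.10 in Barx1 intestine, 11.20 and 11.20 in stomach, and at most 11.05 in intestine. Its largest difference was 0.18 between stomach and intestine (SE 0.05, adjusted p = 0.081). Efnb1 lay between 8.05 and 8.42. Efna5, a ligand of EPHA3, was under the quartile on all 6 arrays, at 3.88 to 4.07. Efna2, Efna3, Efna4 and Efnb3 differed by at most 0.36 in either direction.

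The secreted factors outside the guidance families were led by Ptn. Ptn (NCBI gene 19242) encodes pleiotrophin, a heparin-binding growth factor that promotes neurite outgrowth. It read 9.59 and 9.65 in Barx1 intestine, 10.93 and 11.27 in stomach, and 10.80 and 10.87 in intestine. Barx1 intestine lay below both control organs, which differed from each other by 0.27 without passing (SE 0.12, adjusted p = 0.178). Ptn fell by 1.22 in Barx1 intestine against intestine (SE 0.12, adjusted p = 0.0143), to 0.431 of its level there, and the difference from stomach was -1.48 (SE 0.12, adjusted p = 0.0114). Its other probe set fell as well, with differences of -1.55 and -1.64. The call against intestine was lost without intestine replicate 2 (adjusted p = 0.0529) or either array of Barx1 intestine (adjusted p up to 0.0908), with differences of -1.25 to -1.18 in all 6 fits; that against stomach was lost without stomach replicate 2 or replicate 1 of Barx1 intestine (adjusted p up to 0.0718).

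Gdnf, the chemoattractant of enteric neural crest, read 6.08 and 6.09 in Barx1 intestine, 6.59 and 6.68 in stomach, and 5.60 and 6.17 in intestine. It was higher in stomach than in intestine by 0.75 (SE 0.18, adjusted p = 0.0444), and Barx1 intestine, inside the range of the intestine arrays, differed from intestine by 0.20 (adjusted p = 0.563) and from stomach by -0.55 (adjusted p = 0.144). The stomach call was lost without either stomach or either Barx1 intestine array (adjusted p up to 0.191). Edn3 was under the quartile on all 6 arrays, at 4.11 to 4.36, with no call.

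**Figure D3:**
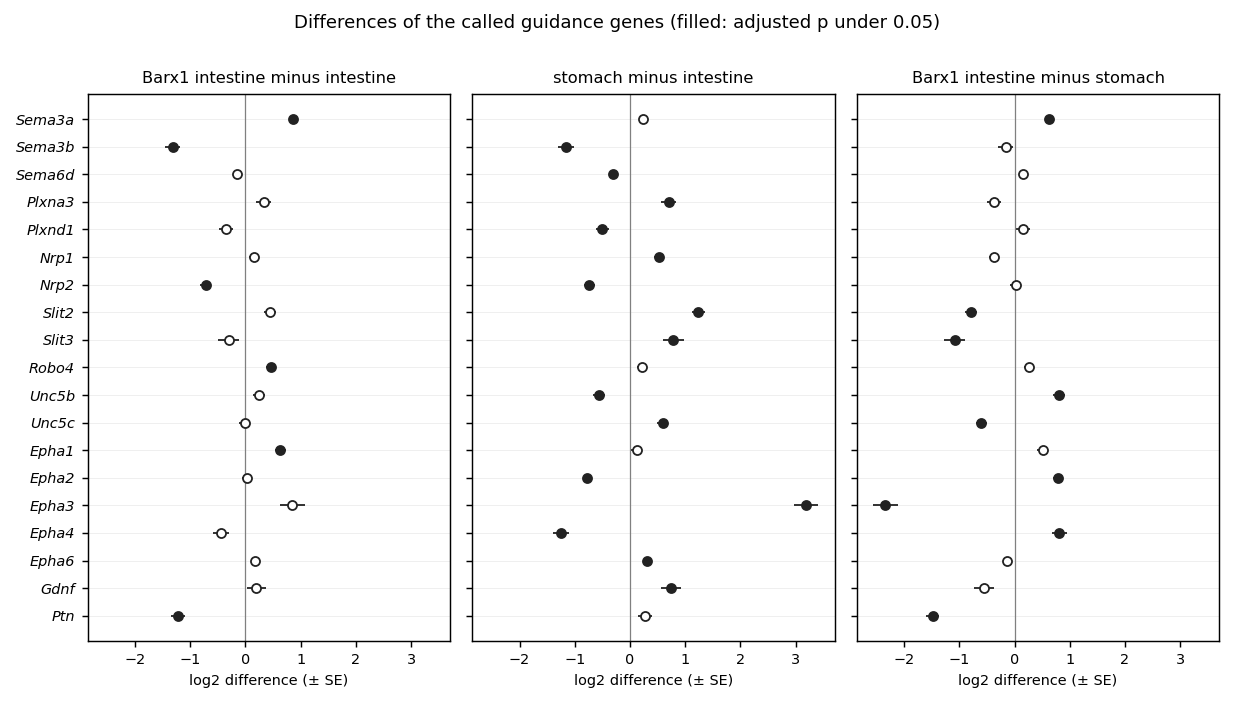
Log2 difference with its SE (horizontal axis) for the 19 genes past the threshold in at least 1 comparison, in 3 panels by comparison; filled points passed at an adjusted p under 0.05. Epha3 reaches 3.19 in stomach minus intestine and -2.34 in Barx1 intestine minus stomach, while Sema3a and Ptn differ from 0 in both panels that hold Barx1 intestine.

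The comparison of Barx1 intestine with stomach also tests whether the 2 differences from intestine are equal. For Sema3b and Nrp2, lower than intestine in both groups, it gave no call, with differences of -0.16 and 0.02 (SE 0.14 and 0.10). For Slit2, Slit3, Unc5c and Epha3 it was negative and for Epha2, Epha4 and Unc5b positive, all past the threshold; these 7 genes differed between stomach and intestine and gave no call between Barx1 intestine and intestine. Sema3a and Ptn passed against both control groups, with no call between stomach and intestine.

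Genes that work with these cues were counted in lists chosen for their function. Of 25 receptors and related ligands of neurotrophic factors, 0 were higher and 3 lower in Barx1 intestine than in intestine, 1 was higher and 5 lower in stomach than in intestine, and 0 were higher and 2 lower in Barx1 intestine than in stomach. The list medians were 0.00, 0.05 and -0.03, and 3.98%, 16.9% and 5.2% of all genes passed in these comparisons. The 3 lower in Barx1 intestine than in intestine were Ednrb, the receptor of endothelin 3, Erbb3, a neuregulin receptor, and Ngfr, the low-affinity neurotrophin receptor, which enteric neural crest cells express. Ngfr read 6.44 and 6.60 in Barx1 intestine, 7.16 and 7.25 in stomach, and 7.72 and 7.99 in intestine, with no overlap between groups; the difference was -1.34 between Barx1 intestine and intestine (adjusted p = 0.01), -0.66 between stomach and intestine (adjusted p = 0.0176) and -0.68 between Barx1 intestine and stomach (adjusted p = 0.0358). Ednrb differed by -3.17 and Erbb3 by -2.60 between Barx1 intestine and intestine. Ret and Gfra1, which form the receptor of GDNF, read 5.38 to 5.69 and 5.30 to 5.47 over all arrays with no call. Ptprz1, Alk and Sdc3, which are among the known receptors of pleiotrophin, gave none either. Between Barx1 intestine and intestine they differed by 0.22, 0.10 and -0.05. In stomach, the endothelin genes Edn1 (-0.95, adjusted p = 0.0078) and Ece1 (-1.37, adjusted p = 0.0103), whose enzyme activates endothelins, were lower than in intestine, and Erbb2 was higher (0.26, adjusted p = 0.0462).

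**Figure D4:**
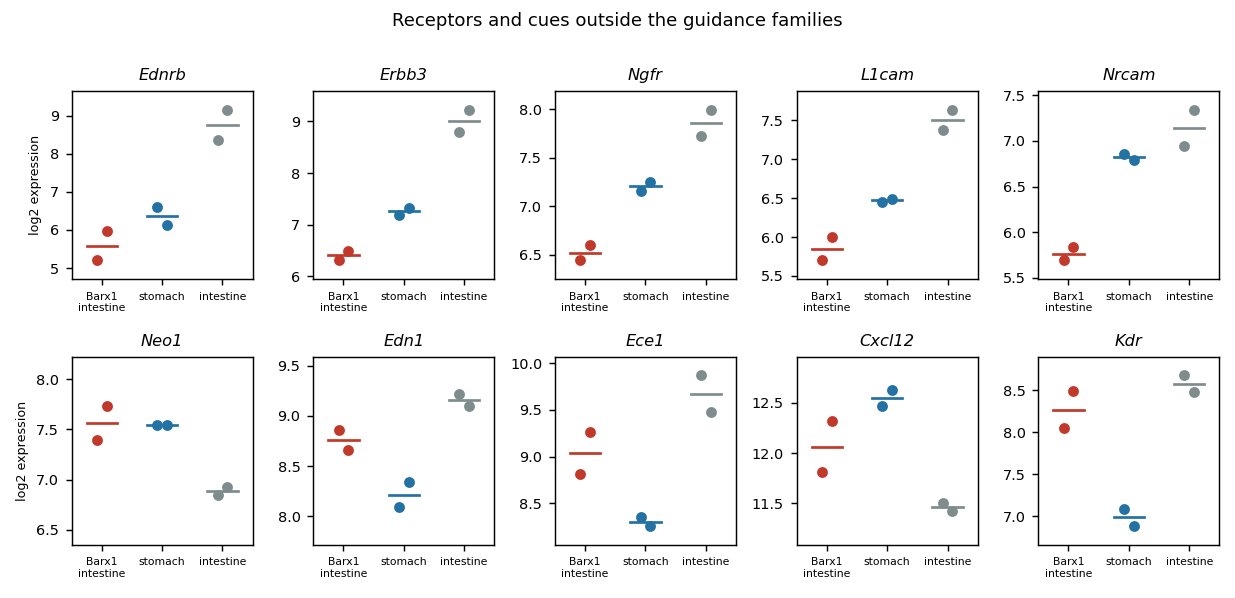
Log2 expression (vertical axis, own range for each gene) on each of the 6 arrays for 10 receptors and cues outside the guidance families; points are arrays and bars are group means. Ednrb, Erbb3, Ngfr and L1cam are lowest in Barx1 intestine and highest in intestine, while Neo1 is lower in intestine than in the other groups.

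Of 26 other guidance cues, receptors and adhesion molecules, 1 was higher and 2 lower in Barx1 intestine than in intestine, with a list median of 0.05. Over all genes 3.98% passed there, 16.9% in stomach against intestine and 5.2% in Barx1 intestine against stomach. Neo1, the netrin and RGM receptor neogenin, read 7.39 and 7.73 in Barx1 intestine, 7.54 and 7.54 in stomach, and 6.85 and 6.93 in intestine, higher by 0.67 in Barx1 intestine (adjusted p = 0.0446) and by 0.65 in stomach (adjusted p = 0.0206). The axonal adhesion molecules L1cam and Nrcam were lower in Barx1 intestine than in intestine, by differences of -1.65 (adjusted p = 0.00905) and -1.38 (adjusted p = 0.0156). L1cam read 5.70 and 6.00 in Barx1 intestine, 6.45 and 6.49 in stomach, and 7.37 and 7.63 in intestine, the same order of groups as Ngfr. In stomach against intestine 5 were higher, Neo1, Cxcl12 (1.09), Vldlr (0.90), Ncam1 (0.87) and Vegfa (0.45), and 2 lower, Kdr (-1.59) and L1cam (-1.03), with a median of 0.04. In Barx1 intestine against stomach Kdr, a VEGF receptor, was higher (1.28), and Nrcam (-1.06), Ncam1 (-0.57) and Vldlr (-0.45) were lower, with a median of -0.02.

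Beside these values stand the markers of enteric neurons and glia. Of 22 measured, 0 were higher and 4 lower in Barx1 intestine than in intestine, where 3.98% of all genes passed, with a list median of 0.00. The 4 were Ednrb, Erbb3, Foxd3 and Sox10, of which Ednrb and Erbb3 also stand among the neurotrophic receptors above. Without a call, the neuronal genes Phox2a (0.60, adjusted p = 0.0514 by limma) and Vip (0.57) lay above 0, and Tubb3 (-1.22) and Prph (-0.42) below. In stomach against intestine 2 were higher (Gap43 and Vip) and 3 lower (Ednrb, Erbb3 and Sox10), where 16.9% of all genes passed. In Barx1 intestine against stomach 0 were higher and 2 lower (Erbb3 and Tubb3), where 5.2% of all genes passed. The mean of the list was 6.51 and 6.64 in Barx1 intestine, 6.84 and 6.71 in stomach, and 6.98 and 6.89 in intestine. Its sum on the linear scale was 3019 and 3906 in Barx1 intestine, 3707 and 3372 in stomach, and 4481 and 4473 in intestine, so both intestine arrays were the highest. Such a sum weighs the brightest genes most. Fabp7 among them read 9.21 and 10.39 in Barx1 intestine, 8.97 and 8.85 in stomach, and 10.17 and 9.96 in intestine, with no call. None of the 22 was under the quartile on all arrays. The part of these cells in the differences of Ngfr, L1cam, Nrcam, Nrp2 and Sema3b was not tested.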

How the data were processed

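The authors deposited log2 expression values for 22690 probe sets on 6 Affymetrix arrays, and the submitters' processing notes name RMA; no version is given in the sources used here. RMA brings all arrays to a common distribution, so a change shared by most genes would be lost. The values, 2.48 to 14.7, fit a log2 scale, which no label states. Arrays have no read depth, and their number limits the precision.

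Platform annotation gave 1 gene for 20380 probe sets; the 691 with several genes, 1555 with none and 64 controls were left out. Each of 12393 genes, and each member (27 of 59 have over 1 probe set), was read from 1 probe set, that of the highest mean across arrays. All 6 arrays entered 1 fit of group means in limma 3.58.1 (lmFit and eBayes, R 4.3.3), with 3 residual and 2.58 prior degrees of freedom, Benjamini-Hochberg adjustment over all genes and a threshold of 0.05. The labels call the samples biological replicates without naming embryos or pools, so p-values measure the spread between these samples.

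Named are all members past the threshold with every array, the other members by range, with those of the highest level or largest difference in a family, and the called genes of the further lists with a few others of small p. Ret, Gfra1, Ptprz1, Alk and Sdc3, and the remaining members' values, were chosen for their role after values were seen. Members, lists and tests were chosen with earlier results of these data known. Alternatives were a filter on dim genes, median centring, quantile normalization, averaging a gene's probe sets, a fit to the 2 groups compared, a trend in the variance, the replicate number as a block and leaving out each array. Background correction could not be varied in summarised values. Promoter letters come from a RefSeq table of start regions (GRCm38.p6), which holds 52 of the 59 members; the RefSeq gene table behind the member rule is a separate one and holds all of them.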

Additional observations from a re-analysis of the deposited data

How the results depend on the processing

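Of the 30 called differences of guidance genes none turned its sign under any alternative. The filter on dim genes (which removed Sema6d, Epha6 and Robo4) and median centring kept every call they tested. Of the 6 calls between Barx1 intestine and intestine, a fit of these 2 groups alone kept 2, where 50 genes of all passed in place of 493; a variance trend gave 1037 genes. Between Barx1 intestine and stomach 644 genes became 998 with the filter on dim genes and 1189 with a variance trend. Whether replicate numbers pair the samples is not known. Deviations from the group means of same-numbered arrays correlated at -0.22 (stomach with intestine), -0.06 (stomach with Barx1 intestine) and 0.20 (intestine with Barx1 intestine). With 2 arrays a group, these values cannot settle it. With the replicate block the counts of genes were 267 in Barx1 intestine against intestine, 1508 in stomach against intestine and 337 in Barx1 intestine against stomach, and 4, 13 and 7 guidance genes were called. These include 3 of the 6, 13 of the 15 and 6 of the 9 original calls; lost were Epha1, Nrp2 and Robo4 in the first comparison, Epha6 and Sema6d in the second, and Epha4, Slit2 and Unc5c in the third.

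Leaving out 1 array gave 50 to 466 genes and 1 to 6 guidance genes in Barx1 intestine against intestine, 281 to 1692 and 2 to 13 in stomach against intestine, and 0 to 727 and 0 to 11 in Barx1 intestine against stomach. A group left with 1 array is assumed to vary like the others. Where that group is not compared, the fit equals that of the 2 compared groups. The counts of 0 came from limma: without stomach replicate 2, 1906 of all genes and 13 of the 59 had an unadjusted p under 0.05, and without Barx1 intestine replicate 1, 20 of the 59. The causes of these changes were not tested beyond the number of arrays and genes in each fit. For genes near the lower quartile the size of a difference is uncertain, since their level may be background.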

Other observations

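The proteins that carry guidance signals inside the cell gave no call in Barx1 intestine against intestine. Of 42 measured genes of this list 0 were higher and 0 lower by limma, with a median difference of -0.02, where 3.98% of all genes passed. An unadjusted p under 0.05 was reached by 12 of the 42, and by 2924 of all 12393 genes. In stomach against intestine 6 were higher and 5 lower, where 16.9% of all genes passed. Mical1, an actin-oxidising enzyme that acts below plexins, read 8.50 and 8.76 in Barx1 intestine, 9.59 and 9.71 in stomach, and 8.55 and 8.4 in intestine, with a difference of 1.17 between stomach and intestine (adjusted p = 0.00442) and -1.02 between Barx1 intestine and stomach (adjusted p = 0.015). Farp1, a partner of class A plexins, was also higher in stomach (0.48, adjusted p = 0.0143), as were Pak3 (0.52), Dpysl3 (0.48), a collapsin response mediator, Nfatc4 (0.47) and Ngef (0.47), an exchange factor bound by EPHA4. The kinase gene Abl1 (-0.50), the adaptors Nck1 (-0.34) and Nck2 (-0.51), Dpysl4 (-0.52) and Srgap2 (-0.27), which acts below robos, were lower in stomach. In Barx1 intestine against stomach Nck1 was higher (0.52), and Mical1 and Farp1 (-0.42) were lower.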
